A study of Homo sapiens with 6 samples.

Results

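The genes described here are NFE2L2, which encodes the transcription factor NRF2, KEAP1, which encodes its inhibitor, and the classical NRF2 targets NQO1, HMOX1, GCLC, GCLM, TXNRD1, SRXN1 and OSGIN1. They were chosen by gene symbol as genes of this pathway, with earlier results of these data known. Of these 9 genes, 8 were found in the table of 24526 genes, and all 8 were abundant enough to be among the 16297 genes tested. The transcript level of SRXN1 was not analysed here.

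RNA-seq was performed on 6 libraries of WM266.4 cells, an established human melanoma line. In 3 libraries the cells had been transfected with a negative control siRNA (neg.si), and in the other 3 with siRNA against RIPK4 (RIPK4.si), a kinase of the receptor-interacting protein family. A single siRNA was directed at RIPK4, silencing was transient, and no stimulus is named for these libraries. siRNAs are short RNA duplexes that trigger the destruction of matching transcripts.

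In unstressed cells NRF2 is made continuously and destroyed continuously. KEAP1, a protein with reactive cysteines, presents NRF2 to the CUL3 ubiquitin ligase for degradation by the proteasome. When oxidants or electrophiles modify KEAP1, NRF2 escapes, enters the nucleus, pairs with a small MAF protein and binds antioxidant response elements near genes for glutathione synthesis, thioredoxin reduction, quinone detoxification and haem breakdown. Because NRF2 is controlled mainly as a protein, its own transcript need not follow its activity, whereas the transcripts of its targets are commonly used as a readout of it.

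The core of the antioxidant response element was searched as TGACNNNGC, on both strands, in RefSeq promoter windows (GRCh38.p14) that run from 250 bases before to 50 bases after a transcription start. Windows were found for every gene of the group except HMOX1, 11 windows in all. The core was present in 4 of the 11 windows, and in 13.35% of the 35116 windows of all genes. The stretches around the matches of GCLM and TXNRD1 are shown because they hold these letters just before the start of a gene whose transcript was measured here, with the core in capitals and written on the strand of the gene.
GCLM, chr1:93909436-93909484, minus strand: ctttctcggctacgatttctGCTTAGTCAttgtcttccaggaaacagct
TXNRD1, chr12:104215660-104215799, plus strand: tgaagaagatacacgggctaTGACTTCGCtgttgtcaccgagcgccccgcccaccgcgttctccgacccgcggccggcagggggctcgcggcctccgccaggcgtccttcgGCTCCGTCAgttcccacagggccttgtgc
The match of GCLM began 34 bases before the start and lay on the opposite strand. Those of TXNRD1 began 99 bases before the start on the gene's strand and 8 bases before it on the other. A second start of TXNRD1 had a match 102 bases upstream, and a second start of KEAP1 had 2 matches, of which GCTTAGTCA, 31 bases upstream, has the same letters as that of GCLM. The windows of NQO1, GCLC, OSGIN1, NFE2L2 and SRXN1 held no match. A match is a run of letters and does not show that NRF2 binds there. Nor does its absence show that a gene lacks an element, since other spellings and bases outside the windows were not searched.

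The libraries held between 28464057 and 31688095 counts on genes. RIPK4 ranged from 54.7 to 85.8 CPM (counts relative to the normalized library size) in neg.si and from 16.7 to 21.5 CPM in RIPK4.si, and fell by 1.90 on the log2 scale (adjusted p = 0.0102; adjusted p-values are those of edgeR, by the quasi-likelihood method and Benjamini-Hochberg, unless another tool is named). The call of RIPK4 was lost when neg.si replicate 2 or any RIPK4.si library was left out, with adjusted p-values of 0.0622 to 0.106 and log2 fold changes of -1.98 to -1.79. All 7 melanocyte and melanoma markers examined (MITF, SOX10, PMEL, MLANA, TYR, DCT and S100B) were present, with summed levels of 3547 to 3985 CPM in neg.si and 2600 to 2717 CPM in RIPK4.si. Summed levels of the fibroblast, leukocyte and endothelial markers did not pass 2.58 CPM in any library, and those of the keratinocyte markers reached 16.1 CPM, nearly all of it KRT10. The relation of GC content to measured level was not the same in all control libraries. Over 16239 tested genes the rank correlation of GC content with the deviation from the mean over libraries was 0.555 in neg.si replicate 1 and -0.547 in neg.si replicate 3, and it lay between -0.079 and 0.165 in the other libraries. In bulk RNA, a change in the share of cells that express a gene and a change in the transcripts per cell cannot be told apart.

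Of the 8 NRF2 genes, 7 had a higher mean level in RIPK4.si than in neg.si, where 46.6% of all tested genes had a positive log2 fold change, and NFE2L2 itself differed least. None was called at an adjusted p-value under 0.05, the rule by which 0.767% of all tested genes were called, and the adjusted p-values ran from 0.367 for GCLC to 0.976 for NFE2L2. At an unadjusted p-value under 0.05 there were 3, GCLC, HMOX1 and GCLM, all higher in RIPK4.si, against 4.85% of all tested genes that were higher at that limit and 6.0% that were lower. This count of 3 became 0 when neg.si replicate 2, RIPK4.si replicate 1 or RIPK4.si replicate 3 was left out. It became 1 when RIPK4.si replicate 2 was, beside 1472 of 16857 tested genes. In 4 of the 8, GCLC, GCLM, NQO1 and HMOX1, every RIPK4.si library lay above every neg.si library, which was so in 8.23% of all tested genes. This count depended on the scaling of the libraries. TPM are counts per kilobase of merged exons scaled to the same total in each library. As TPM the count was 2 of 8, NQO1 and HMOX1, beside 6.55% of all tested genes with a length. As counts over the library total it was 3, without GCLC, beside 7.73% of all tested genes. The median log2 fold change of the 8 genes was 0.34, and that of all tested genes was -0.02. In 5 of the 8 genes neg.si replicate 3 was the lowest of the 6 libraries in CPM (in 4 as TPM, without HMOX1), and the median deviation of the 8 genes from their mean was -0.36 (log2) in that library, where the other neg.si libraries had -0.03 and -0.08. Without it the median log2 fold change of the 8 genes was 0.17. The intervals drawn in the plot of log2 fold changes reach above 0.57, the 95th percentile of all tested genes, for 7 of the 8.

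**Figure D1:**
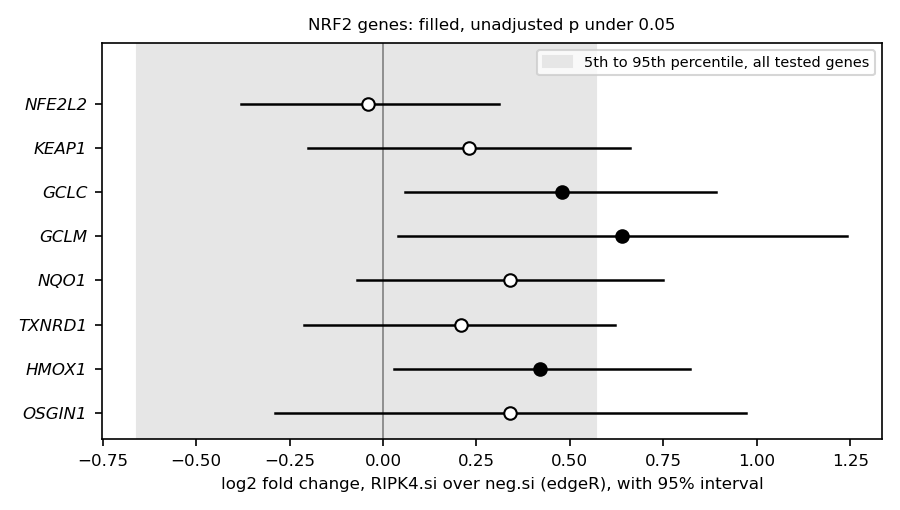
Log2 fold change of each NRF2 gene, RIPK4.si over neg.si, from edgeR (points) with its 95% interval (lines); the grey band spans the 5th to the 95th percentile of all tested genes, -0.66 to 0.57. GCLC, GCLM and HMOX1 (filled) had an unadjusted p-value under 0.05, and only the point of GCLM, at 0.64, lies outside the band.

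NFE2L2 lies on chromosome 2 of GRCh38 (177227595 to 177392697, minus strand). Its level was 170, 209 and 193 CPM in neg.si replicates 1, 2 and 3 and 170, 208 and 179 CPM in RIPK4.si replicates 1, 2 and 3. The groups covered nearly the same range, and the log2 fold change was -0.04 (95% interval -0.38 to 0.31, standard error 0.154, adjusted p = 0.976). A change in the NRF2 transcript within that interval was not detectable with 3 libraries a group.

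KEAP1, the adaptor that hands NRF2 to the ubiquitin ligase, lies on chromosome 19 (10486125 to 10503558, minus strand). It was measured at 51.2, 45.4 and 31.5 CPM in neg.si and at 49.0, 51.6 and 49.8 CPM in RIPK4.si. The RIPK4.si libraries lay close together, and the low value was that of neg.si replicate 3. KEAP1 had a log2 fold change of 0.23 with a standard error of 0.19 (adjusted p = 0.789). It became 0.06 when neg.si replicate 3 was left out and 0.40 when neg.si replicate 1 was. Per length, the ratio of NFE2L2 to KEAP1 ran from 0.792 to 1.46 in neg.si and from 0.829 to 0.964 in RIPK4.si, within the spread of the controls.

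The catalytic and the modifier subunit of glutamate-cysteine ligase, the rate-limiting enzyme of glutathione synthesis, are encoded by GCLC and GCLM. GCLC (chromosome 6, 53497341 to 53616970, minus strand) was at 9.91, 10.3 and 13.95 CPM in neg.si and at 16.4, 15.2 and 15.85 CPM in RIPK4.si. The lowest RIPK4.si library was above the highest neg.si library (p = 0.1 in a two-sided exact permutation test, which cannot go lower with 3 libraries against 3). As TPM the groups overlapped, with 5.9 in neg.si replicate 3 and 4.95 in RIPK4.si replicate 2. The mean of neg.si was 11.4 ± 2.24 CPM (SD, n = 3) and that of RIPK4.si 15.8 ± 0.616 CPM (SD, n = 3), a fold change of 1.39. The fitted log2 fold change of 0.48 (standard error 0.185, 95% interval 0.06 to 0.89) had an adjusted p-value of 0.367. With 1 library left out it lay between 0.41 and 0.65, with adjusted p-values of 0.0836, when neg.si replicate 3 was omitted, to 0.863, when neg.si replicate 2 was.

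GCLM (chromosome 1, 93885199 to 93909456, minus strand) had the highest log2 fold change of the group. Counts on it were low, 96, 168 and 210 in neg.si and 231, 234 and 245 in RIPK4.si. Its level was 3.10, 5.59 and 6.61 CPM in neg.si and 7.87, 8.10 and 7.88 CPM in RIPK4.si. In CPM the groups did not overlap (p = 0.1, two-sided exact permutation test) and the RIPK4.si libraries were nearly equal, while the neg.si libraries spread widely, with replicate 1 lowest. As TPM the RIPK4.si libraries ran from 4.19 to 5.16, and the lowest of them, replicate 2, was under the 4.44 of neg.si replicate 3. On the log2 scale the fold change was 0.64 (95% interval 0.04 to 1.24, standard error 0.267, adjusted p = 0.421), a value passed by 3.9% of all tested genes. Leaving out neg.si replicate 1 gave 0.40, and leaving out replicate 3 of that group gave 0.88. Per length of merged exons, the ratio of GCLC to GCLM was 2.01 in neg.si replicate 1 and 1.15 to 1.33 in the other 5 libraries.

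NQO1 encodes a quinone reductase that is among the most strongly NRF2-dependent genes known, and was the most abundant gene of the group. It lies on chromosome 16 (69706996 to 69726668, minus strand). Its level was 978, 934 and 765 CPM in neg.si and 1037, 1362 and 984 CPM in RIPK4.si. The groups did not overlap, although RIPK4.si replicate 3 was only just above neg.si replicate 1. A log2 fold change of 0.34 (95% interval -0.07 to 0.75, standard error 0.183, adjusted p = 0.584) became 0.19 without RIPK4.si replicate 2, the highest library.

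TXNRD1, the cytosolic thioredoxin reductase (chromosome 12, 104215779 to 104350307, plus strand), was at 304, 276 and 225 CPM in neg.si and at 275, 374 and 281 CPM in RIPK4.si. The groups overlapped, and only RIPK4.si replicate 2 lay above all controls. Its log2 fold change, 0.21 with a standard error of 0.183 (adjusted p = 0.812), became 0.06 without that library and 0.10 without neg.si replicate 3. It became 0.32 when neg.si replicate 1 was omitted, and 0.30 when RIPK4.si replicate 1 was.

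HMOX1 encodes haem oxygenase 1, which breaks haem down to biliverdin, carbon monoxide and iron. It lies on chromosome 22 (35380361 to 35394207, plus strand). Its level was 11.2, 9.72 and 8.69 CPM in neg.si and 14.0, 13.6 and 12.1 CPM in RIPK4.si, from 276 to 410 counts a library. All RIPK4.si libraries were above all neg.si libraries, the closest being RIPK4.si replicate 3 and neg.si replicate 1. The mean of neg.si was 9.86 ± 1.25 CPM (SD, n = 3) and that of RIPK4.si 13.2 ± 1.02 CPM (SD, n = 3). HMOX1 had a log2 fold change of 0.42 (95% interval 0.03 to 0.82, standard error 0.175, adjusted p = 0.412), and leaving out any 1 library gave 0.34 to 0.54.

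OSGIN1, an oxidative stress-induced growth inhibitor (chromosome 16, 83931311 to 83966332, plus strand), varied most among the controls, at 25.4, 19.3 and 11.1 CPM in neg.si. It was at 22.8, 27.9 and 19.9 CPM in RIPK4.si, so the groups overlapped. Over all libraries its log2 fold change, 0.34, had an adjusted p-value of 0.793 and a standard error of 0.282. Leaving out neg.si replicate 3 gave 0.08 and leaving out replicate 1 of that group 0.65, and 0.20 remained when RIPK4.si replicate 2 was omitted.

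**Figure D2:**
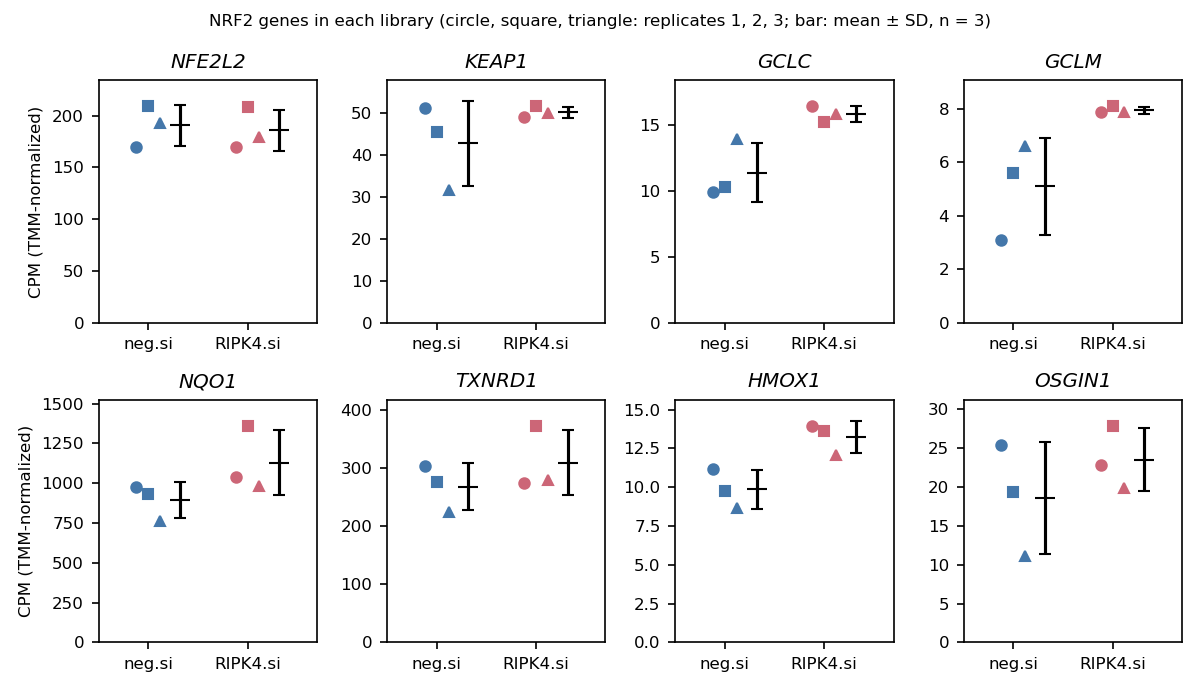
Level of each NRF2 gene in CPM, on axes that start at 0, in the 3 neg.si (blue) and 3 RIPK4.si (red) libraries; circles, squares and triangles are replicates 1, 2 and 3, and the black bar is the mean ± SD. In CPM the groups do not overlap for GCLC, GCLM, NQO1 and HMOX1 (as TPM, for NQO1 and HMOX1 alone), and in CPM neg.si replicate 3 is the lowest of the 6 libraries for KEAP1, NQO1, TXNRD1, HMOX1 and OSGIN1.

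Transcript levels of the group spread widely. As TPM the mean over the 6 libraries was 1092 for NQO1, 138 for TXNRD1, 41.8 for KEAP1, 40.7 for NFE2L2, 16.2 for HMOX1, 12.1 for OSGIN1, 5.16 for GCLC and 3.92 for GCLM. NQO1 exceeded 99.7% of the 24416 genes with a length, and GCLM exceeded 55.5%. NQO1 was 7.90 times as high as TXNRD1, and the ranges of these genes over the libraries did not overlap. Nor did those of TXNRD1 and KEAP1, NFE2L2 and HMOX1, or OSGIN1 and GCLC. The ranges of KEAP1 and NFE2L2 overlapped, with KEAP1 higher in 4 of 6 libraries. HMOX1 and OSGIN1, and GCLC and GCLM, overlapped in range but kept their order in all 6 libraries. The order depends on the length assumed, since merged exons of NFE2L2 cover 14975 bases and its longest transcript 5104. Per length of the longest transcript NFE2L2 reached 93.15 TPM against 43.97 TPM for KEAP1, and OSGIN1, at 21.9 TPM, passed HMOX1, at 17.1 TPM. On that length GCLC was at 9.15 TPM and GCLM at 3.4 TPM, farther apart than per merged exons.

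The genes of the group did not vary as a single block. Over the 6 libraries, Pearson's r of log2 CPM between members had a median of 0.29 in 28 pairs, with 8 pairs below 0. The highest values were those of KEAP1 and OSGIN1 (0.96), NQO1 and TXNRD1 (0.95), and TXNRD1 and OSGIN1 (0.90). GCLC and GCLM, the subunits of a single enzyme, had 0.88, and neither passed 0.53 with any gene outside this pair. NFE2L2 did not pass 0.30 with any gene of the group. These values describe 6 libraries that share 2 conditions and their depth, and carry no test. They were computed without removing the GC trend of the libraries, whose part in them was not tested. KEAP1 (60.8%) and OSGIN1 (63.4%) had the highest GC content of the 8 genes, and GCLM (37.3%) the lowest. The genes with at least 10 CPM whose pattern was most like that of GCLC were C2orf68 (r = 0.988), RABGAP1L (0.988) and SYNCRIP (0.986), and 180 of 9207 genes compared had r over 0.9.

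The differences among the controls followed GC content within the group too. Between neg.si replicate 3 and replicate 1, log2 CPM differed by 1.08 for GCLM, whose longest transcript is 37.3% GC, by 0.49 for GCLC (44.2%), by -0.70 for KEAP1 (60.8%) and by -1.19 for OSGIN1 (63.4%). Over the 8 genes the rank correlation of this difference with GC content was -0.93, and over all tested genes with a GC value it was -0.63, both as descriptions of 2 libraries. NQO1 (44.2%) and TXNRD1 (44.6%) were lower in neg.si replicate 3 by 0.35 and 0.44 although GCLC has nearly the same GC content. The rank correlation of GC content with the log2 fold change of the 8 genes was -0.12.

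**Figure D3:**
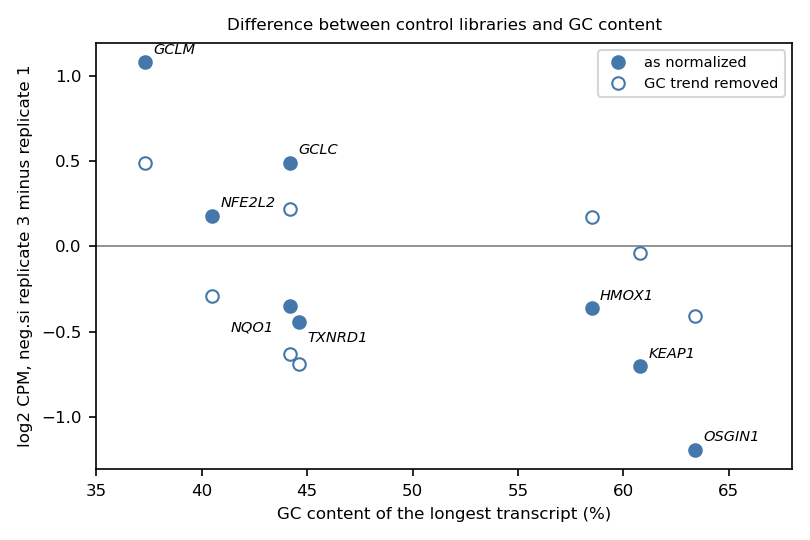
Difference in log2 CPM between neg.si replicates 3 and 1 (y axis) against the GC content of the longest transcript (x axis, %) for the 8 NRF2 genes, as normalized (filled) and with the GC trend of the libraries removed (open). As normalized, the difference falls from 1.08 for GCLM to -1.19 for OSGIN1, and after removal it ranges from -0.69 for TXNRD1 to 0.49 for GCLM.

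With the trend on GC content removed from each library, the SD of log2 CPM among the neg.si libraries went from 0.364 to 0.0733 for KEAP1, from 0.608 to 0.222 for OSGIN1, from 0.565 to 0.321 for GCLM, from 0.27 to 0.149 for GCLC and from 0.181 to 0.0954 for HMOX1. It went up for NQO1 (0.188 to 0.322), TXNRD1 (0.224 to 0.35) and NFE2L2 (0.152 to 0.203). The log2 fold changes stayed close, at 0.51 for GCLC (adjusted p = 0.074), 0.69 for GCLM (adjusted p = 0.0851) and 0.40 for HMOX1 (adjusted p = 0.16). None of the 8 was called under this setting either, where 3.36% of all tested genes were called. What part the GC trend has in the differences between the groups was not tested.

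Around the 9 genes, 7 lists of pathway genes were examined, 96 genes of which 89 were tested. BACH2, GPX2, AKR1B10, ALDH3A1, ABCC3 and SLC40A1 were too low to be tested, and UGT1A6 was not analysed here. Only PRDX1 was called, 1 of 89 genes where 0.767% of all tested genes were called. At an unadjusted p-value under 0.05 there were 9 genes, all higher in RIPK4.si, and 0 lower, against 4.85% and 6.0% of all tested genes. Every RIPK4.si library lay above every neg.si library in 10 of the 89 and under it in 3, beside 8.23% and 9.40% of all tested genes. As TPM these counts were 9 and 5 of the 88 listed genes with a length, beside 6.55% and 9.08% of all tested genes with a length. The medians of the lists lay between -0.02 and 0.22.

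Among the thioredoxin and peroxiredoxin genes, 1 of 20 was called, beside the same 0.767% of all tested genes. PRDX1 encodes peroxiredoxin 1, which reduces peroxides with electrons from thioredoxin. Its level was 62.2, 57.7 and 51.7 CPM in neg.si and 108, 156 and 102 CPM in RIPK4.si. All RIPK4.si libraries were well above the controls, and replicate 2 was highest. PRDX1 rose by 1.09 on the log2 scale (standard error 0.192, adjusted p = 0.0422). The adjusted p-value was 0.0569 and 0.287 without neg.si replicate 1 or 2, and 0.156, 0.12 and 0.209 without RIPK4.si replicate 1, 2 or 3. The call was thus lost when any of these libraries was left out, with log2 fold changes of 0.88 to 1.21. The annotation names processed copies of PRDX1 (1), GLRX (3) and TXN (7), with which these genes could share reads. GLRX, glutaredoxin, had a log2 fold change of 0.60 (adjusted p = 0.384), and TXN, thioredoxin itself, 0.35 (adjusted p = 0.732). The median of the list was 0.03.

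None of the 7 genes of NADPH supply was called. ME1, cytosolic malic enzyme, came nearest, at 72.8, 94.0 and 98.0 CPM in neg.si and 140, 170 and 150 CPM in RIPK4.si. The groups did not overlap, and ME1 had a log2 fold change of 0.80 (adjusted p = 0.0743, standard error 0.166). Its adjusted p-value was 0.00244 by DESeq2, 0.0155 with the GC trend removed and 0.0296 without neg.si replicate 3. It reached 0.368 when RIPK4.si replicate 3 was left out. Under the first 3 of these settings, 430 of 24526, 548 of 16297 and 295 of 16586 genes were called. The median of this list was -0.01.

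In the list of quinone and carbonyl detoxification and export, 0 of 15 genes were called and 3 had an unadjusted p-value under 0.05, all higher, beside 0.767% and 4.85% of all tested genes. AKR1A1, an aldehyde reductase, was at 28.5, 25.7 and 17.1 CPM in neg.si and at 34.9, 48.4 and 35.8 CPM in RIPK4.si, without overlap. Its log2 fold change was 0.74 (adjusted p = 0.22). With the GC trend removed, where 3.36% of all tested genes were called, its adjusted p-value was 0.0347. It reached 0.559 when neg.si replicate 2 was omitted. CBR1, a carbonyl reductase, had 0.53 (adjusted p = 0.359) and ABCC2, an exporter of conjugates, 0.38 (adjusted p = 0.342). The median of the list was 0.11.

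Of the 23 glutathione genes tested, 0 were called. MGST1, a membrane-bound glutathione transferase of low level here, was at 1.453, 1.498 and 1.511 CPM in neg.si and at 2.999, 2.907 and 2.508 CPM in RIPK4.si, without overlap (log2 fold change 0.91, adjusted p = 0.128). ABCC1, an exporter of glutathione conjugates, had 0.40 (adjusted p = 0.347). SLC7A11, the cystine importer that supplies glutathione synthesis and is itself an NRF2 target, had the lowest value of the list. It was at 36.0, 47.5 and 105.6 CPM in neg.si and at 44.8, 21.8 and 44.8 CPM in RIPK4.si, with neg.si replicate 3 far above the rest. The groups overlapped, and the fitted value was -0.76 on the log2 scale (adjusted p = 0.57, standard error 0.404).

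Of the 7 tested genes of haem and ferritin, all had a positive log2 fold change, with a median of 0.22, where 46.6% of all tested genes had a positive value, and 0 were called. FTL, the ferritin light chain, ranged from 703 to 1689 CPM in neg.si and from 1538 to 2318 CPM in RIPK4.si, so the groups overlapped (log2 fold change 0.70, adjusted p = 0.432). The value became 0.44 when neg.si replicate 3 was omitted and 1.08 when neg.si replicate 1 was, with an adjusted p-value of 0.119 in the latter. The annotation names 16 processed copies of FTL, which held 16 counts in all against 277455 on FTL, and reads that match a copy as well as the gene could be counted on either or neither.

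Among 13 tested regulators of NRF2, 0 were called and 0 had an unadjusted p-value under 0.05. The gene with the smallest p-value was GSK3B, a kinase that marks NRF2 for degradation without KEAP1, at 142, 162 and 198 CPM in neg.si and 131, 120 and 140 CPM in RIPK4.si (log2 fold change -0.36, adjusted p = 0.48). Its value was -0.22 when neg.si replicate 3 was omitted. BTRC, the ubiquitin ligase receptor that acts with it, had -0.33 (adjusted p = 0.536), and the groups did not overlap in either gene. Of the 4 superoxide dismutase and catalase genes, which are less closely tied to NRF2, 0 were called, and SOD3 had the smallest p-value, with a log2 fold change of -0.46 (adjusted p = 0.622) that became -0.24 when neg.si replicate 2 was omitted. GLRX, TXN, CBR1, ABCC2, ABCC1, SLC7A11 and BTRC were named after their values were seen.

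**Figure D4:**
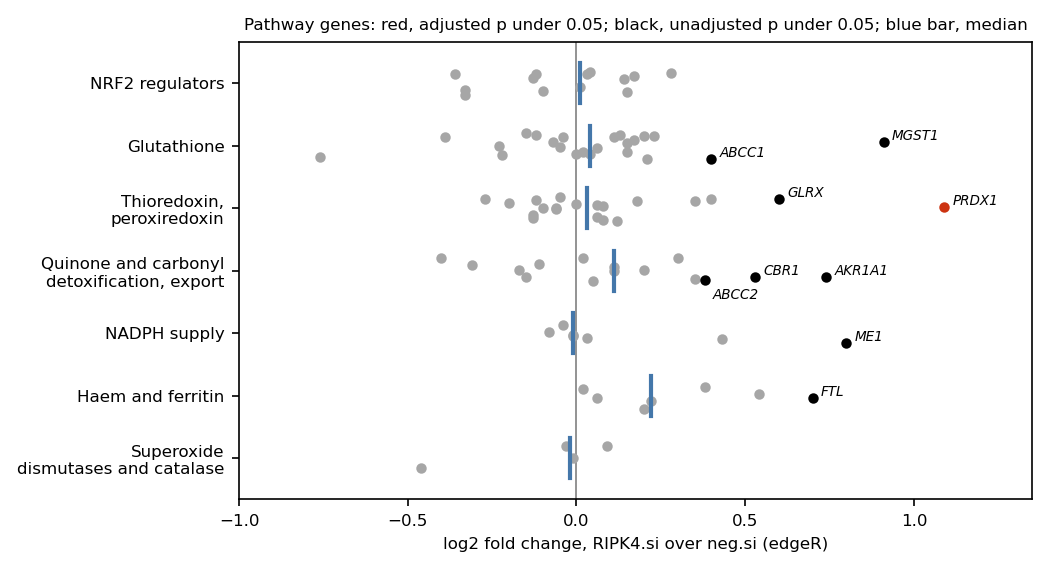
Log2 fold change, RIPK4.si over neg.si, of the 89 tested pathway genes in 7 lists; each point is a gene, red with an adjusted p-value under 0.05, black with an unadjusted p-value under 0.05 and grey otherwise, and the blue bar is the median of the list. PRDX1, at 1.09, is the red point, and the 8 black points are all above 0.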

How the data were processed

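A sequencing service made the libraries for the authors from poly(A) RNA and read them from both ends. Per the methods of the study, adapters were removed with Cutadapt, TopHat was the aligner (build GRCh38.p13) and HTSeq assigned pairs to genes without regard to strand. The deposited counts are not normalized and cover genes with a total of at least 6. The authors also deposited signal values (counts divided by DESeq2 size factors, and their mean), a fold change as a ratio, its log2 value with standard error, and p-values with adjusted p-values. These hold the study's own comparison and were not used.

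Counts were tested with edgeR 4.0.16 in R 4.3.3 over all 16297 genes that passed its filter on low counts, with TMM normalization, the quasi-likelihood test and Benjamini-Hochberg adjustment; a gene was called at an adjusted p-value under 0.05. CPM and intervals (95%) are from this fit, and standard errors are log2 fold changes over the square root of F. Lengths, GC content and overlaps came from GENCODE release 44 (GRCh38), promoters from RefSeq. Because strand was ignored, reads of NFE2L2, GCLC, NQO1 and TXNRD1 cannot be told apart from those of genes on the opposite strand, and OSGIN1 overlaps MLYCD on its own strand. The scripts were tested on simulated data.

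The members and lists were chosen with earlier results of these data known. Named were the 8 genes, RIPK4, in each list every called gene and that with the smallest p-value, the 3 genes most like the member of smallest p-value, and markers. The study states 3 biological replicates a condition. Alternatives were DESeq2 1.42.0, other normalizations and filters (at least 10 counts in every library, or none), removal of a lowess trend on GC content (span 0.3), a replicate block and each library left out. Other scalings of the overlap between groups were added after seeing the data. Python 3.11.15, numpy 2.4.6, pandas 2.3.3, scipy 1.17.1 and matplotlib 3.10.9 were used.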

Additional observations from a re-analysis of the deposited data

How the results depend on the processing

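No NRF2 gene was called by edgeR or under any of the 14 alternatives, and the lowest adjusted p-value reached was 0.074, for GCLC with the GC trend removed. The count of 3 with an unadjusted p-value under 0.05 (GCLC, GCLM, HMOX1) became 0 without neg.si replicate 2, RIPK4.si replicate 1 or RIPK4.si replicate 3. It became 1 (GCLC) without RIPK4.si replicate 2, beside 1472 of 16857 tested genes. It became 2 with the replicate block (GCLC and GCLM), beside 1721 of 16297 tested genes. It was 2 when neg.si replicate 3 was omitted (GCLC and GCLM), beside 2380 of 16586. It was also 2 when neg.si replicate 1 was omitted (HMOX1 and OSGIN1), beside 2268 of 16744. With the GC trend removed and the block it was 4, where OSGIN1 was the gene gained, beside 2645 of 16297. In the main fit 1768 of 16297 tested genes passed this limit. The median log2 fold change of the 8 genes lay between 0.17, when neg.si replicate 3 was omitted, and 0.45, when RIPK4.si replicate 3 was. Of the NRF2 genes only NFE2L2 changed sign: it lay between -0.12 and 0.05 with a library left out, at 0.05 when neg.si replicate 2 and at 0.04 when RIPK4.si replicate 1 was omitted. RIPK4 lost its call without neg.si replicate 2 or any RIPK4.si library, with log2 fold changes between -2.06 and -1.74 when a library was left out. The count over all genes, 125, was 430 with DESeq2, 548 with the GC trend removed and 441 with the GC trend removed and the replicate block, and 0 to 295 with a library left out (0 without neg.si replicate 2, RIPK4.si replicate 1 or RIPK4.si replicate 3, where edgeR gave 1153, 1426 and 1086 genes with an unadjusted p-value under 0.05). The 1 call among the 89 genes of the pathway lists became 2 with DESeq2 (PRDX1 and ME1), 3 with the GC trend removed, with or without the block (PRDX1, ME1 and AKR1A1), and 0 to 2 with a library left out. Beside these, 0.767% of all tested genes were called in the main fit and 3.36% with the GC trend removed. DESeq2 called 430 of 24526 genes, and 441 of 16297 were called with the GC trend removed and the block. The cause of these changes was not tested. Whether the replicate numbers pair the libraries was not settled. Deviations of same-numbered libraries correlated at -0.242, 0.251 and 0.346, and those of differently numbered libraries at -0.498 to 0.413. The replicate block alone gave 131 calls over all genes, 0 among the NRF2 genes and 1 in the lists. GCLM had the fewest counts of the NRF2 genes, 96 to 245 a library. The count of 4 NRF2 genes whose groups did not overlap was 2 as TPM (NQO1 and HMOX1), 3 per library total (NQO1, HMOX1 and GCLM) and 4 with the GC trend removed (KEAP1, HMOX1, GCLC and GCLM), scalings chosen after seeing the data. The share of tested genes with every RIPK4.si library above every neg.si library was 8.23% in CPM and 6.55% as TPM. It was 7.73% per library total and 11.19% with the GC trend removed.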
